A study of Arabidopsis thaliana with 4 samples.

Results

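The autophagy genes of Arabidopsis that carry an ATG symbol were examined for binding of ANAC060, a NAC-domain transcription factor, in seedlings grown with or without glucose. The genes were chosen by their symbol in the gene table, ATG followed by a digit, among nuclear protein-coding genes. Their peaks were selected on position, in the gene body or within 1 kb of it. Whether a gene has a peak is therefore a description of the deposited lists, and no test was made of it. The rule found 19 of 27444 genes. Of these, 18 belong to autophagy. The remaining one, AT3G51800, is listed as ATG2 but is the growth regulator EBP1 by its other names in the table, and it is called EBP1 here. The autophagy gene ATG2 is AT3G19190.

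Autophagy carries parts of the cytoplasm into the vacuole for breakdown and recycling, and plants depend on it when carbon or nitrogen runs short. The ATG1 kinase complex, of which ATG13 is a regulatory subunit, starts the process under the control of the nutrient kinases TOR and SnRK1. ATG2, ATG9 and the ATG18 proteins supply and shape the growing membrane, and a phosphatidylinositol 3-kinase (PI3K) complex with ATG6 marks it. A chain of ubiquitin-like conjugation enzymes then attaches the small protein ATG8 to the membrane, where it holds cargo receptors.

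Chromatin was precipitated with a polyclonal anti-GFP antibody from 10-d-old whole seedlings of a transgenic line in which the constitutive 35S promoter drives ANAC060 fused to GFP in an anac060 mutant background (ecotype Columbia, Col-0). One group was grown on medium with 6% glucose and the other without glucose, and input DNA of wild-type Col-0 seedlings of the same treatment, taken with no antibody, was the control of each. The protocol also names 6% sorbitol, and the labels do not say which samples received it. There was 1 library in each of the 4 groups, so no value below has a replicate error, and no difference between the lists can be told apart from a difference between libraries. The 35S promoter is active in most tissues, and whole seedlings mix all of them.

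The values were 2 peak lists with the authors' MACS score for each peak, 2859 peaks with glucose and 4155 without. Glucose scores started at 30.02 and no-glucose scores at 100.01, so a weak site could enter the first list and not the second. Read depth was unknown. A gene without a listed peak had no peak above the list's own minimum, which does not show that the protein was absent there. The gene table gives no strand, so positions are given from the lower- or higher-coordinate end of a gene and not from its start of transcription.

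In the glucose list 4 of the 19 genes had a peak (21.1%), ATG13, ATG3, ATG8E and ATG8F, beside 18.1% of all 27444 genes. In the no-glucose list 8 of 19 had one (42.1%), the same 4 genes with ATG2, ATG18B, ATG18H and ATG8B, beside 25.5% of all genes. All 4 members of the glucose list were thus also in the no-glucose list, as were 3811 of all 4977 genes with a glucose peak. That made 4 of 19 in both lists (21.1%), beside 13.9% of all genes. The remaining 11 genes, ATG6, ATG10, ATG12A, ATG18C, ATG18D, ATG18G, ATG8C, ATG8D, ATG8G, ATG8H and EBP1, had no peak within 1 kb in either list. The glucose share is near the background. Gene length, which sets how easily a peak touches a gene, had a median of 2200 bp over the 19 genes and 2078 bp over all.

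Fewer genes were left when the peak had to lie on the gene itself. A peak touched the gene body of ATG8E and ATG8F in the glucose list (2 of 19, beside 14.3% of all genes) and of ATG13, ATG2, ATG18H, ATG8B, ATG8E and ATG8F in the no-glucose list (6 of 19, beside 20.9%). These were also the genes that lay nearest to the centre of a peak, 2 with glucose beside 9.75% of all genes and 6 without beside 14.2%. For ATG3 in both lists, ATG18B without glucose and ATG13 with glucose, another gene was closer to the peak centre.

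**Figure D1:**
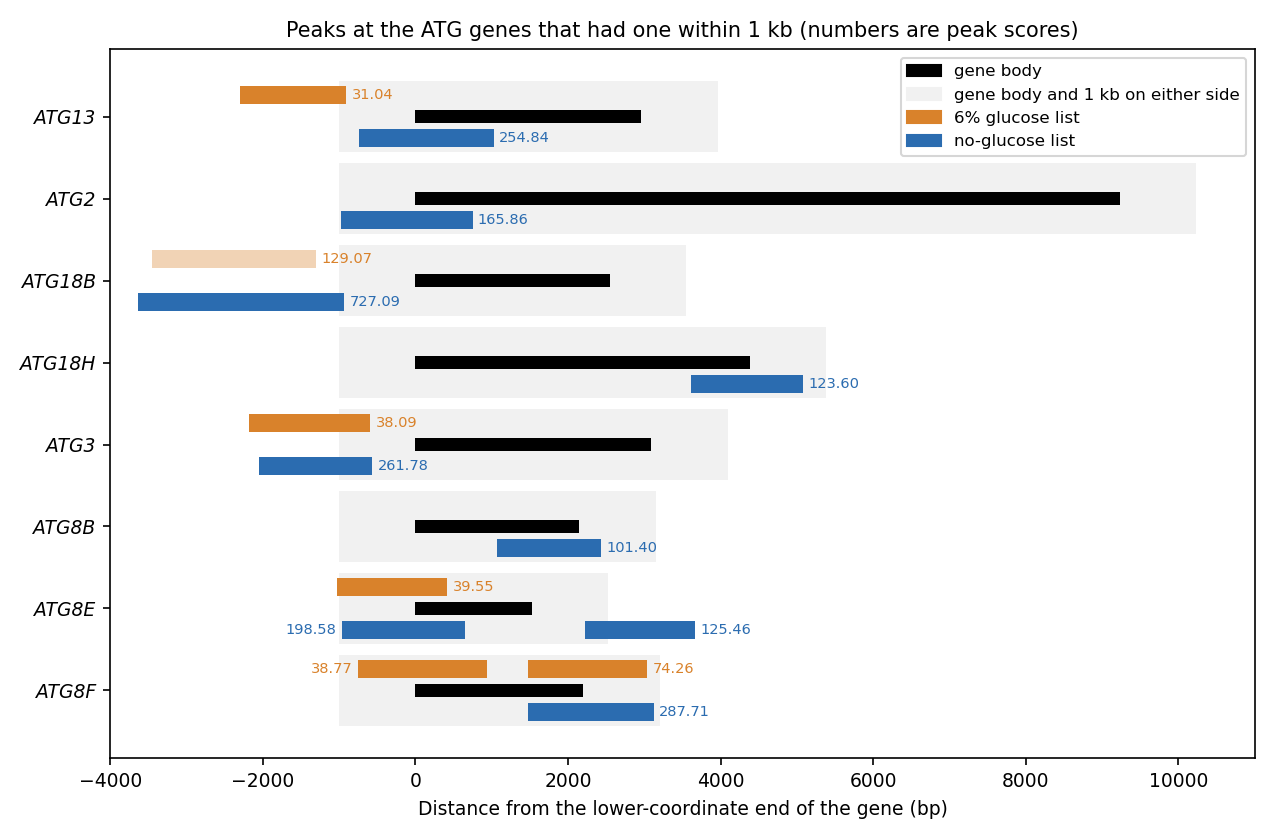
Peaks of both lists at the 8 ATG genes with a peak within 1 kb, drawn to scale in bp from the lower-coordinate end of each gene, with each peak's score beside it. Black bars are gene bodies, grey bands add 1 kb on either side, and the pale glucose bar at ATG18B ends 1304 bp from the gene, outside the band. Peaks lie over a gene end at ATG13, ATG2, ATG18H, ATG8B, ATG8E and ATG8F, and away from the gene at ATG3 and ATG18B.

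ATG13 was the single member from the ATG1 kinase complex. Its no-glucose peak (chromosome 3, 18376668 to 18378439, TAIR10) had a score of 255, rank 1222 of 4155, and covered 34.8% of the gene from its lower-coordinate end. The glucose peak (18375107 to 18376500) had a score of 31.0, rank 2761 of 2859, close to the lowest score of that list. It ended 909 bp from ATG13, and its centre lay inside LSU1, a gene of the response to low sulphur. The 2 peaks did not overlap and were 167 bp apart, so ATG13 was in both lists through different peaks. Whether these mark separate binding sites was not tested.

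The members that supply and shape the membrane, ATG2 and 5 ATG18 genes, had 0 of 6 with glucose, beside 18.1% of all genes. Without glucose they had 3 of 6, beside 25.5% of all genes. Of these 3, ATG18B also had a glucose peak at the same place, 1304 bp from the gene and so outside the limit. Whether the 2 counts differ was not tested. ATG2 encodes a lipid transfer protein and is the longest member, at 9232 bp. Its peak (chromosome 3, 6638661 to 6640387) had a score of 166, rank 2330, and lay over the lower-coordinate end, with its centre 115 bp outside the gene. The centre was 246 bp from the neighbour AT3G19184. ATG18 proteins bind the lipid phosphatidylinositol 3-phosphate. The ATG18H peak (chromosome 1, 20420385 to 20421854) had a score of 124, rank 3299, and its centre lay 36.5 bp inside the higher-coordinate end of the gene.

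ATG18B had the highest score of any member peak, 727 without glucose (chromosome 4, 14901459 to 14904164), rank 147 of 4155. This peak ended 933 bp from the gene, and its centre lay 2285.5 bp away, between AT4G30490 and AT4G30500, at 667.5 and 539.5 bp from them. The glucose list held a peak at the same place (14901640 to 14903793, score 129, rank 458 of 2859) that ended 1304 bp from ATG18B and so fell outside the 1 kb limit. The 933 bp of ATG18B and the 909 bp of ATG13 were the values just inside that limit. Just outside it were this glucose peak, a no-glucose peak 1778 bp from ATG8H (score 117) and a glucose peak 1793 bp from ATG8D (score 59.0). The largest member score therefore belongs to a site with other genes closer to it.

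ATG6, the Beclin homologue of the PI3K complex, had its nearest peak 27.67 kb away in the glucose list and 10.66 kb away in the no-glucose list. Of the 3 conjugation members, ATG3 alone had a peak, in both lists (33.3%, beside 18.1% of all genes with glucose and 25.5% without). ATG3 is the E2-like enzyme that passes ATG8 to its lipid anchor. Its peaks (chromosome 5, 24731600 to 24733190 with glucose and 24731740 to 24733220 without) had scores of 38.1 (rank 2259) and 262 (rank 1169). They ended 595 and 565 bp from the gene, and the centres were closest to AT5G61490, at 202 and 117 bp. ATG10, the E2-like enzyme of the ATG12 branch, had its nearest peaks at 9.49 kb with glucose and 3.69 kb without. The ubiquitin-like ATG12A had them at 22.69 and 16.29 kb.

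The ATG8 genes encode proteins that coat the forming membrane and bind cargo receptors. They had 2 of 7 in the glucose list (28.6%, beside 18.1% of all genes) and 3 of 7 in the no-glucose list (42.9%, beside 25.5%). ATG8F had 3 peaks in all. A peak over its higher-coordinate end was in both lists (chromosome 4, 9307818 to 9309374 with glucose and 9307817 to 9309465 without), with scores of 74.3 (rank 1045 of 2859) and 288 (rank 986 of 4155). These centres were 58 and 103 bp outside the gene, and no other protein-coding gene lay within 1 kb of either peak. A further glucose peak (9305580 to 9307271, score 38.8, rank 2214) was centred 86.5 bp inside the lower-coordinate end, and the no-glucose list held no peak that overlapped it. With glucose ATG8F was thus the one member with a peak at both ends.

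ATG8E had a peak over its lower-coordinate end in both lists (chromosome 2, 18623237 to 18624682 with glucose and 18623298 to 18624914 without). The scores were 39.6 (rank 2173) and 199 (rank 1784), and the centres lay 304.5 and 158 bp outside the gene, with no other protein-coding gene within 1 kb of the peaks. The no-glucose peak covered 42.6% of this short gene and the glucose peak 27.4%. A second no-glucose peak (18626492 to 18627924, score 125, rank 3239) lay 701 bp beyond the other end and was centred 51 bp from AT2G45180.

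ATG8B was in the no-glucose list alone, with a peak (chromosome 4, 2329514 to 2330878) that covered 50.1% of the gene. Its score of 101 was close to the minimum of that list, at rank 4101 of 4155. In the glucose list the nearest peak to ATG8B was 194.0 kb away, the largest distance of any member. ATG8C and ATG8G were far from peaks in both lists, at 84.14 and 80.8 kb and at 35.45 and 35.29 kb. ATG8D and ATG8H had peaks outside the limit, at 1.79 kb with glucose and 1.78 kb without. The family therefore ran from genes under a peak in both lists to ATG8C and ATG8G, with no peak nearby in either.

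**Figure D2:**
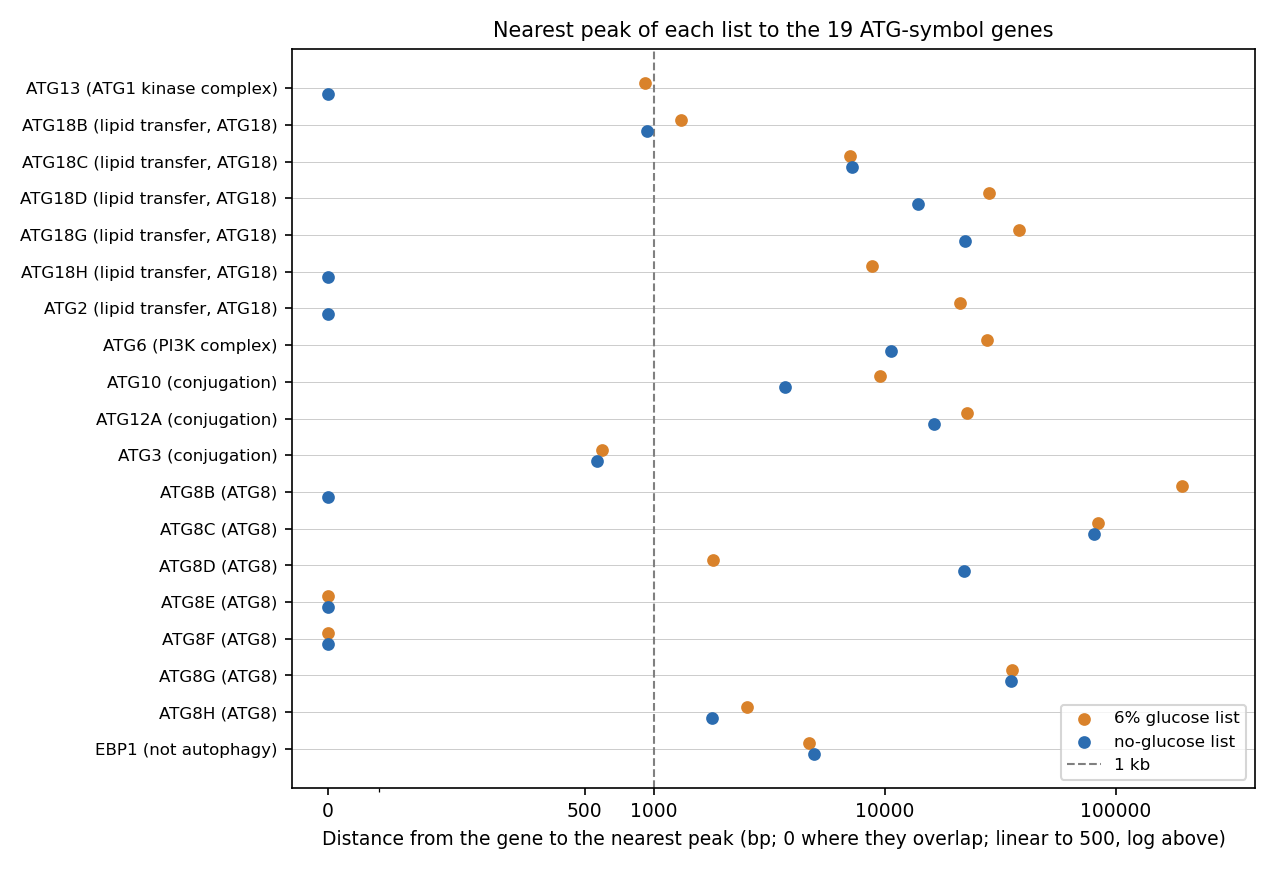
Distance in bp from each of the 19 genes to the nearest peak of each list (orange with glucose, blue without), on an axis that is linear to 500 bp and logarithmic above, with the dashed line at 1 kb. ATG8E and ATG8F are at 0 in both lists, and ATG13, ATG2, ATG18H and ATG8B are at 0 in the no-glucose list alone.

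Over all 19 genes the median distance to the nearest peak was 8.82 kb with glucose and 3.69 kb without, where all genes had 11.3 and 6.41 kb. The lists differ in length, so the pair of medians within a list is the meaningful one. The largest member distances were 194.0 kb with glucose and 80.8 kb without.

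Sites were next compared between the lists. Of the 5 glucose peaks at members, 3 overlapped a no-glucose peak (60.0%), beside 74.0% of all glucose peaks. Of the 9 no-glucose peaks at members, 4 overlapped a glucose peak (44.4%), beside 49.7% of all no-glucose peaks. The glucose peaks that did so were at ATG3, ATG8E and ATG8F, and the no-glucose peak at ATG18B made the fourth. With sharing taken as centres within 250 bp, the member shares stayed at 60.0% and 44.4% and those of all peaks were 44.7% and 30.7%. Whether members lay above or below the whole lists thus turned with the rule, and nothing is read from it.

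The overlapping pairs lay nearly on top of each other. Their centres were 45 bp apart at ATG8F, 85 bp at ATG3, 95 bp at ATG18B and 146.5 bp at ATG8E, with 1557, 1451, 2154 and 1385 bp in common. The no-glucose score was 3.87, 6.87 and 5.02 times the glucose score at ATG8F, ATG3 and ATG8E. The no-glucose list holds no score under 100.01, and these 3 glucose scores were all under 100, so a ratio above 1 was fixed by the lists. At ATG18B the glucose score was above 100 and the ratio was 5.63. Its median was 2.26 over the 619 glucose peaks of the whole list that scored at least 100 and overlapped a no-glucose peak. Read depth was unknown, so a difference in the scale of scores between the libraries cannot be told apart from one in binding. With 1 library each, no ratio shows stronger binding without glucose.

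Scores were ranked within each list. The glucose member peaks ranged from 31.0 to 74.3 with a median of 38.8, beside a median of 57.65 for the list, and 4 of 5 were below it. ATG8F had the highest percentile, 63.5, and ATG13 the lowest, 3.5. The no-glucose member peaks ranged from 101 to 727 with a median of 199, beside 180.05 for the list, and 4 of 9 were below it. ATG18B had a percentile of 96.5, ATG8F 76.3, ATG3 71.9, ATG13 70.6 and ATG8B 1.3. Member peaks were 1394 to 1692 bp wide with glucose and 1365 to 2706 bp without, and touched 1 to 3 protein-coding genes or their 1 kb flanks.

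**Figure D3:**
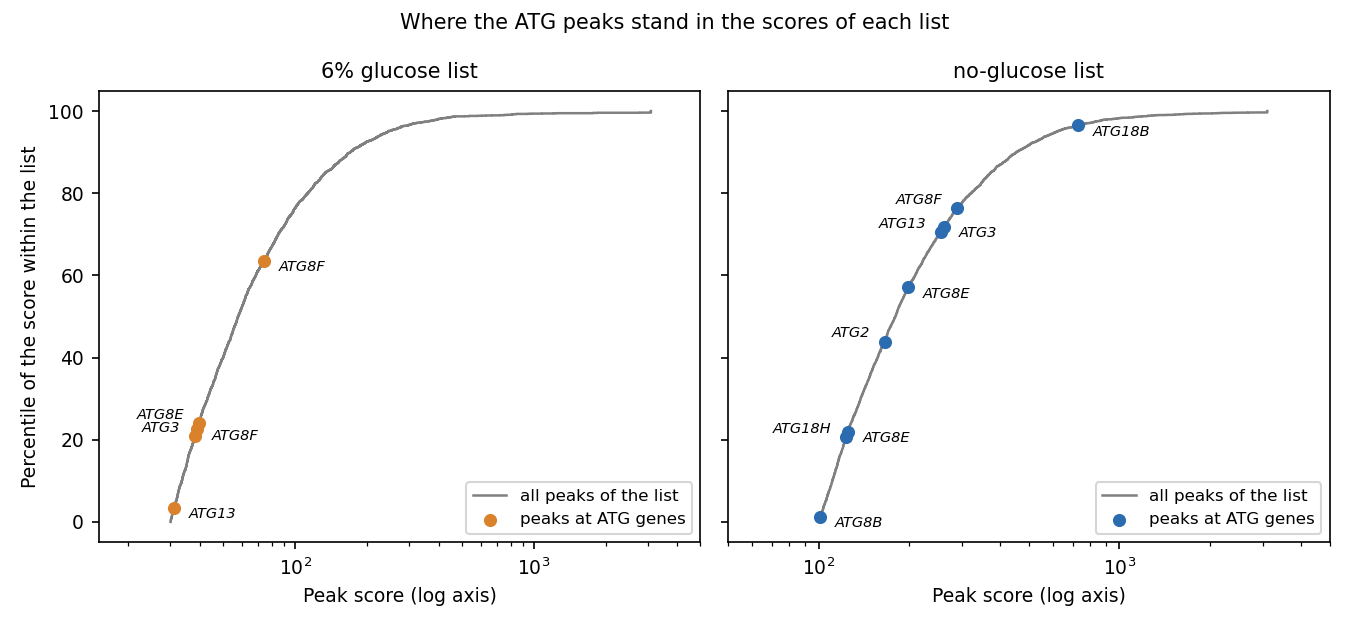
Percentile of each peak score within its own list against the score on a log axis, for all peaks (grey line) and the peaks within 1 kb of ATG genes (points). With glucose all member peaks but that of ATG8F at 74.3 lie in the lower part of the curve, and without glucose they spread from ATG8B at 101 to ATG18B at 727.

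Many autophagy genes have other symbols in the table, and a list of 60 loci drawn from background knowledge was used for these. It holds the 18 autophagy members and 42 other loci. The table itself gives 29 of the 42 the name used in this list, or an alias of it, and these alone are described. The other 13, among them the genes for the ATG1 kinase and the ATG4 protease, have no such name there and were not analysed here. Of the 29, 10 had a peak with glucose (34.5%, beside 18.1% of all genes) and 14 without (48.3%, beside 25.5%). In both lists it was 8 of the 29, beside 13.9% of all genes.

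Among the core ATG and PI3K genes of this list, 3 of 13 had a peak with glucose (23.1%, beside 18.1% of all genes) and 8 of 13 without (61.5%, beside 25.5%). In the kinase complex, the scaffold gene ATG11 had a no-glucose peak over its higher-coordinate end (score 117). ATG101, an ATG13 partner, had a glucose peak at 34.5 and a no-glucose peak at 108 that did not overlap, and the glucose peak was centred in AT5G66940. Of the membrane genes, ATG9, which encodes the membrane protein that brings vesicles, had a no-glucose peak at 133, and ATG18A one at 114. ATG18E had overlapping peaks at 98.7 with glucose and 442 without, with centres closer to AT5G05140. ATG18F had none.

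The conjugation gene ATG5 had a no-glucose peak at 102 and ATG12B one at 158, whereas ATG7, the E1-like enzyme, had none in either list. ATG8A, listed under the older symbol APG8A, had a no-glucose peak that covered the whole gene (chromosome 4, 11654903 to 11657466, score 234, rank 1400). ATG8I, under APG8H, had a glucose peak alone (chromosome 3, 5274453 to 5275935, score 39.7, rank 2160). The lipid kinase gene VPS34 and its partner VPS15 had no peak. Of the 8 no-glucose peaks at these core genes, 6 were below the median score of the list.

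With the 18 autophagy members added, 7 of 31 core genes had a glucose peak (22.6%, beside 18.1% of all genes) and 16 of 31 a no-glucose peak (51.6%, beside 25.5%). By role, these were 2 and 3 of the 3 kinase-complex genes analysed (ATG13, ATG11 and ATG101, without the ATG1 genes), 1 and 6 of 10 for the membrane genes, 0 of 3 in both lists for the PI3K complex, 1 and 3 of 6 for conjugation, and 3 and 4 of 9 for ATG8, with glucose and without. No difference between roles was tested. The no-glucose count fell when low-scoring peaks were left out, and so did the share of all genes. With the no-glucose list shortened to as many peaks as the glucose list it was 9 of 31 (29.0%, beside 18.5% of all genes). Among peaks above the median score it was 7 of 31 (22.6%, beside 14.0%).

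**Figure D4:**
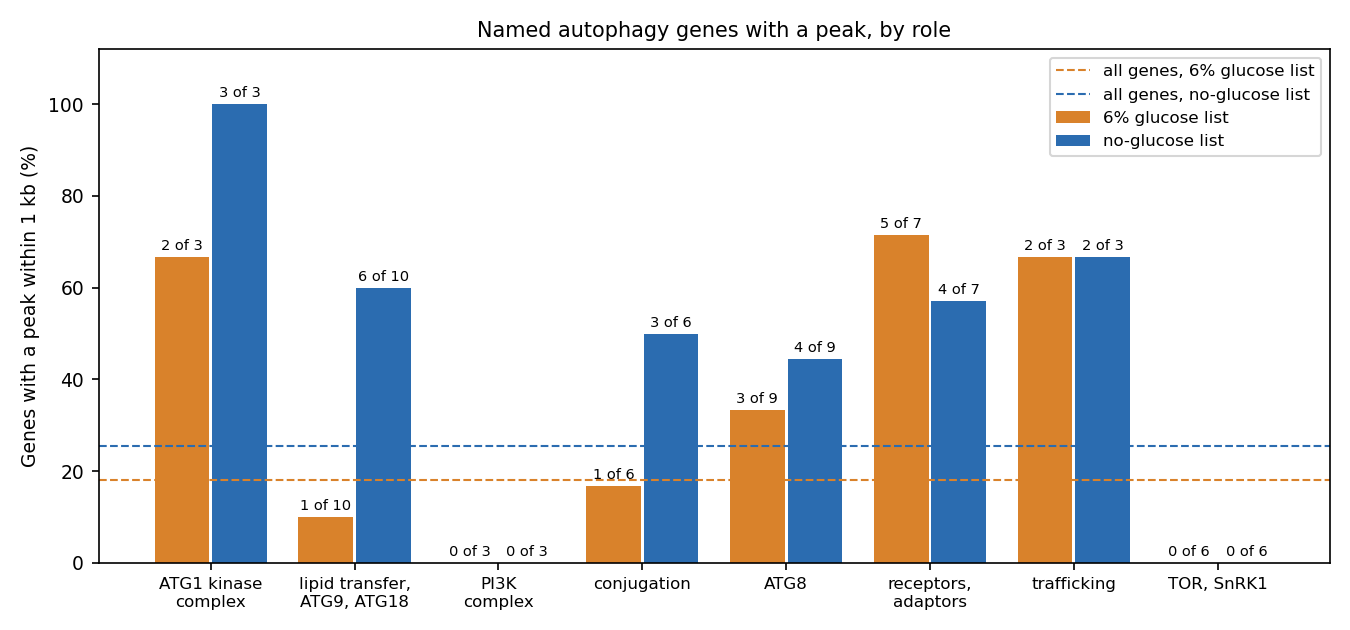
Share of named autophagy genes with a peak in the gene body or within 1 kb, by role, with the count above each bar (orange with glucose, blue without) and the share of all genes as dashed lines at 18.1% and 25.5%. The kinase-complex genes analysed, ATG13, ATG11 and ATG101 without the ATG1 genes, have 3 of 3 in the no-glucose list, and the PI3K complex and the TOR and SnRK1 genes have 0 in both.

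Outside the core, 7 of 16 genes had a peak with glucose (43.8%, beside 18.1% of all genes) and 6 of 16 without (37.5%, beside 25.5%). Receptors and adaptors had 5 of 7 (71.4%) and 4 of 7 (57.1%), beside the same shares of all genes. RPN10, the proteasome subunit that serves as its autophagy receptor, had overlapping peaks at 144 and 360, with and without glucose, and the ubiquitin receptor gene DSK2B had 126 and 159, both centred closer to AT2G17210. The stress-induced membrane protein gene TSPO had 54.8 and 171, the latter centred in ALG3. ATI1, which encodes an ATG8-binding protein, had 38.2 and 143 with glucose and 180 without, and the first and last of these overlapped. The no-glucose peak was centred closer to CYP86A8. NBR1, the receptor for ubiquitin-marked aggregates, had a glucose peak alone, at 70.6, which was 840 bp from the gene and centred in MOS1. ATI2 and DSK2A had none.

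Of the trafficking genes, FREE1, an ESCRT component named FYVE1 in the table, had peaks at 211 (rank 200 of 2859) and 382 (rank 602 of 4155). Both centres were closer to AT1G20100. The exocyst gene EXO70B1 had 98.6 and 146, and the SNARE gene VTI12 had none. The 6 genes of the kinases and partners that control autophagy, TOR, RAPTOR1A, RAPTOR1B, LST8-1, KIN10 and KIN11, had no peak within 1 kb in either list. Of all genes, 18.1% had one with glucose and 25.5% without, and 6 genes are few to set beside these shares. The nearest peaks to the 6 genes were between 3109 bp (RAPTOR1A, without glucose) and 81613 bp (TOR, with glucose) away.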

How the data were processed

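The deposited files are 2 peak lists, 1 per treatment, each from 1 precipitate against 1 input, and their score column holds the authors' MACS score. The submitters' processing notes name FastQC for read quality, BWA (0.7.15-r1140) and the TAIR10 build. MACS ran with the local background model off, per the file headers, which for glucose give a p threshold of 0.001. By its range the score fits 10 times the negative log10 of p, on which that p is 30. The no-glucose list holds 4155 peaks numbered up to 7292, and no source used here says how the rest were removed.

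BED starts were moved by 1 to count from 1. Genes came from the RefSeq table of TAIR10.1. Peak centres lay in gene bodies in 48.6% and 38.3% of cases with and without glucose, and in 66.5% to 67.2% when moved by 5 kb, so both share positions. Peaks overlapping by at least 1 bp were shared. Python 3.11.15, numpy 2.4.6, pandas 2.3.3 and matplotlib 3.10.9 were used, and the overlap steps were tested on simulated data. Every ATG-symbol gene with a peak, and every table-named pathway gene with one, is named. The members and lists were chosen with earlier results of these data known. Promoter motifs were not analysed here. Alternatives changed the flank, the peak's contact with the gene, the score minimum, the list lengths, the overlap and the choice of members by locus.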

Additional observations from a re-analysis of the deposited data

How the results depend on the processing

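Of 103 counts recomputed under the alternatives, 63 stayed within 1.5 times the count given in the report and 40 did not. Some of the 63 could not change. Equal numbers of peaks kept the whole glucose list of 2859. A minimum score of 100 kept the whole no-glucose list, which starts at 100.01. A 500 bp flank, the gene body alone, the peak centre alone and the nearest gene alone changed the same counts. In the glucose list 2 of 19 genes then had a peak (10.5%), beside 16.3%, 14.3%, 13.9% and 9.75% of all genes. In both lists it was 2 of 19 (10.5%), beside 12.3%, 10.7%, 9.83% and 6.19%. Kinase and conjugation members had 0 with glucose. Conjugation members also had 0 without glucose, beside 23.1%, 20.9%, 19.6% and 14.2% of all genes. Above the median score 1 gene had a peak with glucose (5.26%, beside 9.91% of all genes) and 5 without (26.3%, beside 14.0%). In both lists it was 1 (5.26%, beside 6.88%). By role these held 1 ATG8 and 0 kinase and conjugation genes with glucose. Without glucose they held 1 kinase, 1 membrane, 1 conjugation and 2 ATG8 genes. With 100 as the lowest score, 0 genes of the glucose list were left, also by role, beside 4.93% of all genes. In both lists it was 0, beside 4.54%. A 2 kb flank gave 1 of 6 membrane genes with glucose (16.7%, beside 22.4% of all genes). With members taken by locus and named in the table, the set grew from 19 to 31 genes, and counts were compared, not shares. With glucose 7 of 31 had a peak (22.6%, against 21.1% of the 19, beside 18.1% of all genes). Without glucose 16 had one (51.6%, against 42.1%, beside 25.5%). Kinase-complex genes had 2 and 3 of 3, with glucose and without, against 1 of 1 in both lists. Membrane genes had 1 and 6 of 10, and conjugation genes had 3 of 6 without glucose. The counts of overlapping member peaks were 3 of 5 and 4 of 9 under both overlap alternatives, but with centres within 250 bp the share of all peaks went from 74.0% to 44.7% and from 49.7% to 30.7%, from above the members' shares to below them. For the 31 core genes, alternatives added after seeing the data gave 0 to 9 with glucose, beside 4.93% to 22.4% of all genes. Without glucose they gave 7 to 17 (22.6% to 54.8%), beside 14.0% to 31.0%. No paired analysis was possible because each group holds 1 library, which also means that no library could be left out. Read depth is unknown, and sites under a list's lowest score are not in it.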

Other observations

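Several genes that are not autophagy genes by their other names share ATG names with them in the gene table. EBP1 is listed as ATG2. Its neighbours G4, the chlorophyll synthase gene, and SAC8 carry ATG4 and ATG5 among their synonyms, and both had a peak within 1 kb in each list, whereas EBP1 had its nearest peaks at 4.7 kb with glucose and 4.9 kb without. G2484-1 (AT4G17330), with the synonym ATG2484-1, had a peak in the no-glucose list alone. A search by synonym would count these as autophagy genes.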
